A study of Mus musculus with 4 samples.

Results

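The integrins and the adhesion molecules of the immunoglobulin superfamily were compared between the mouse stromal lines OP9M2 and BFC012 on 4 Affymetrix mouse expression arrays, 2 per line. The members were taken by symbol: every integrin α chain, the integrin β chains from Itgb1 to Itgb8, and 16 immunoglobulin adhesion genes (Vcam1, Icam1, Icam2, Alcam, Ncam1, Ncam2, L1cam, Nrcam, Chl1, Cadm1 to Cadm4, Jam2, Jam3 and F11r), each through the probe sets that the array annotation assigns to that gene alone. This gave 101 of the 45037 tested probe sets and 39 of the 18193 genes with a probe set of their own. The 39 genes were 16 integrin α chains, 8 integrin β chains, 4 ligands of leukocyte receptors, 5 neural adhesion molecules, 3 nectin-like molecules and 3 junctional adhesion molecules. Itga11, Itgad and Cadm2 were not analysed here.

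OP9M2 is a single clone of OP9 stroma, labelled as mesenchymal stem cells, and supports human blood progenitors in co-culture. BFC012, labelled as fibroblasts of the fetal liver, does not. Each line received 2000 rad of irradiation and stood for 48 hours at a plating density of 25000 cells per square centimetre before its RNA was taken, and the labels name no blood cells in these cultures. OP9M2 was grown with 20% fetal bovine serum and BFC012 with 10%, so line and serum cannot be told apart. The labels call the 2 arrays of a line biological replicates without saying what separated them, so the p-values measure the spread between these arrays.

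Integrins are receptors made of 1 α and 1 β chain, and the pairing of the chains sets whether a cell holds on to fibronectin, laminin, collagen or a molecule on another cell. Adhesion molecules of the immunoglobulin superfamily bind from cell to cell, some of them to integrins on leukocytes. In blood-forming tissue, stromal cells hold progenitor cells through such contacts, of which the binding of VCAM-1 on stroma to the α4β1 integrin on progenitors is the best known.

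All levels are on a log2 scale, taken as the natural logarithm of the deposited value, and differences are OP9M2 minus BFC012 ± SE with 2 arrays per line. A probe set was called when limma gave an adjusted p under 0.05 over all probe sets together with a difference of at least 1 log2 unit, a 2-fold change. A background level of 6.09 was set from 81 olfactory and other chemosensory receptor probe sets, as the 95th percentile of their values. Where a line was at or below that level on both of its arrays, the fold is given as at least the other line's mean over the background level. Each gene is represented by its probe set with the highest mean, and the level of one probe set was not set against that of another.

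The 2 OP9M2 arrays differed more from each other than the 2 BFC012 arrays did (r = 0.980 and 0.994 over all probe sets, with 2842 and 291 probe sets at least 1 log2 unit apart). On OP9M2 replicate 2, 0 of the 24 poly-A control probe sets were above background, against 18 on OP9M2 replicate 1 and 13 and 12 on the BFC012 arrays. For the highest probe set of each member gene, the value without an array is given where leaving that array out changed the call. Of 12 stromal fibroblast markers, 10 and 10 were above background on the OP9M2 arrays, against 11 and 10 on the BFC012 arrays. Dcn stood at 5.62 and 6.04 in OP9M2, Col1a2 at 6.18 and 6.07 in BFC012, and Lum was below background on all 4 arrays. The blood cell marker Ptprc was at 4.36 and 4.36 in OP9M2, against 4.40 and 4.42 in BFC012, all below background. Of 12 epithelial and mesothelial markers, 3 and 3 were above background on the OP9M2 arrays, against 10 and 10 on the BFC012 arrays, and 6 were called lower in OP9M2.

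Among the 39 genes, 0 were called higher in OP9M2 and 4 were called lower, namely F11r, Cadm1, Itgb8 and Icam1. At an unadjusted limma p under 0.05 there were 7 higher and 10 lower. By probe set, 33.7% of the members had such a p in either direction, against 19.4% of all probe sets. Over all genes 2.36% were called higher and 3.56% lower, and 4 of 39 is 10.3%. By probe set, 4 of the 101 were called higher (4.0%, against 1.80% of all probe sets) and 8 lower (7.92%, against 2.66%), and 89 were not called. The called probe sets belonged to 7 genes, the 4 above with Jam2, Itga5 and Vcam1, and no gene had probe sets called in both directions. The median difference was 0.018 over the member genes and 0.032 over all genes, while the median size of the difference, without its sign, was 0.59 and 0.23. The arrays did not overlap with OP9M2 above BFC012 in 12 member genes (30.8%, against 28.4% of all genes) and with OP9M2 below BFC012 in 13 (33.3%, against 24.8%). These shares without overlap were near those of all genes for OP9M2 above BFC012 and higher for OP9M2 below BFC012.

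Above the background level on both arrays were 16 of the 39 genes in OP9M2 and 21 in BFC012. Of the 39, 15 were above it on all 4 arrays, 10 on some and 14 on none. On each array 49.6% to 50.3% of all probe sets were above it, a share of probe sets and not of genes. Also above it on all 4 arrays were 5 of 15 haematopoietic cell markers and 3 of 10 neural and glial markers. Being above the level does not by itself show expression. The calls depended on single arrays. With OP9M2 replicate 1 left out, 8 member probe sets were called higher and 10 lower, against 3.22% and 3.91% of all probe sets. With OP9M2 replicate 2 left out, 8 were called higher and 13 lower, against 4.84% and 5.01% of all probe sets. With either BFC012 array left out, no call was kept over the whole table, and the spread then rested on the OP9M2 pair alone.

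**Figure D1:**
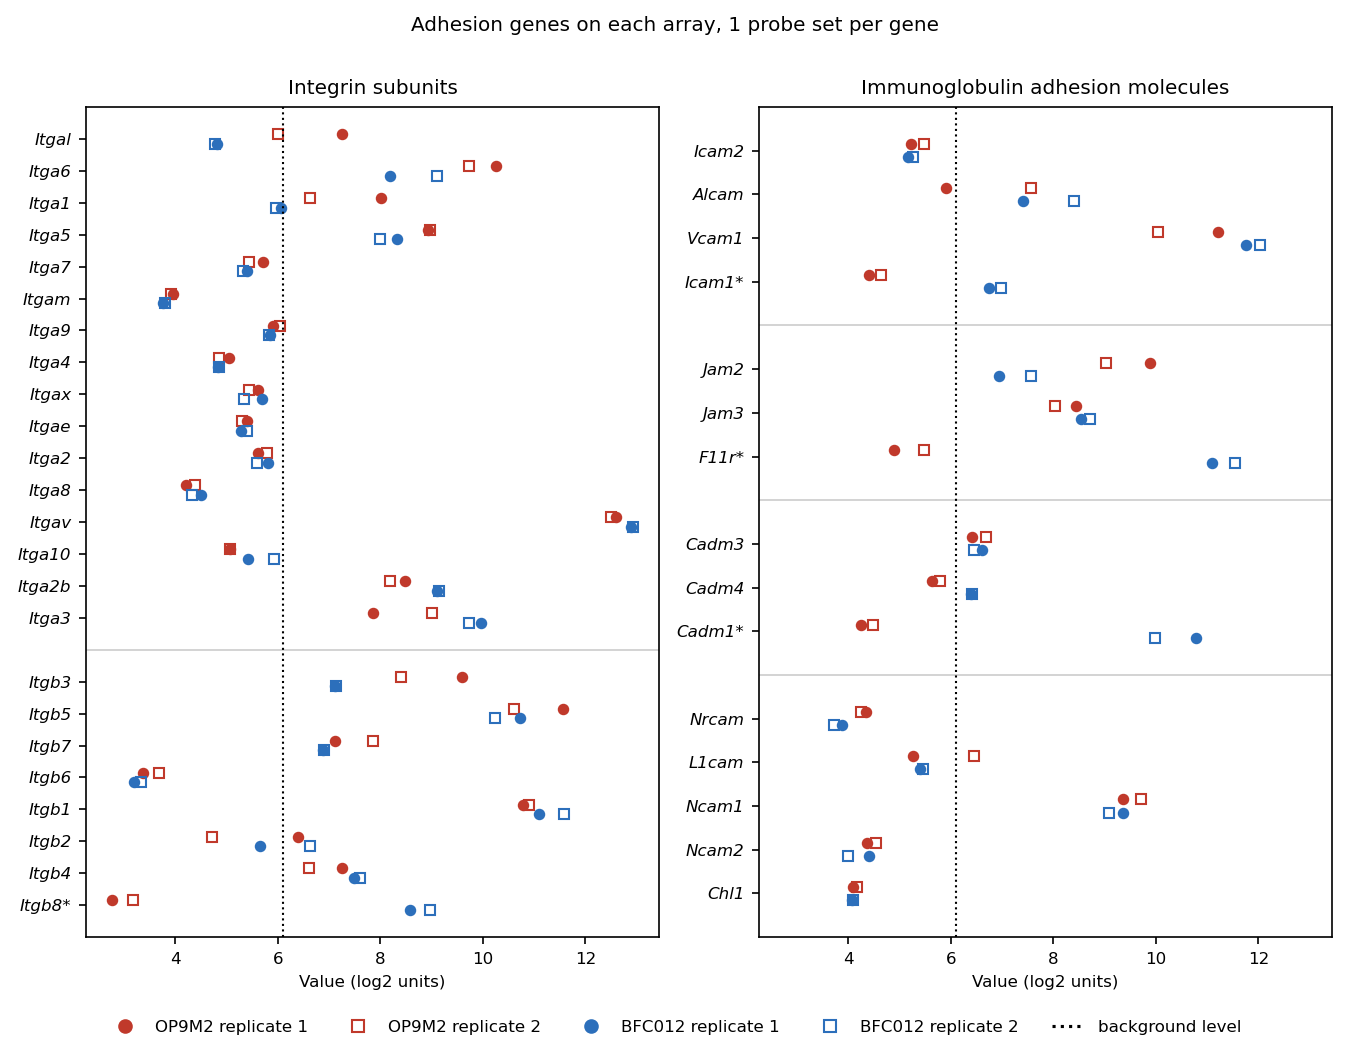
Level of each of the 39 genes on each array (log2 units, x axis), with OP9M2 in red above BFC012 in blue, circles for replicate 1 and open squares for replicate 2. A dotted line marks background at 6.09, genes are ordered by difference within each class, and an asterisk marks the 4 genes called lower in OP9M2. F11r, Cadm1 and Itgb8 lie left of the line in OP9M2 and well right of it in BFC012.

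F11r encodes junctional adhesion molecule A, a component of tight junctions that also binds the leukocyte integrin LFA-1. Its level was 4.88 and 5.48 on the OP9M2 arrays, against 11.09 and 11.54 on the BFC012 arrays (probe set 1424595_at). Both OP9M2 arrays were below background and both BFC012 arrays far above it, a difference of -6.13 ± 0.28 (limma adjusted p = 0.00235) and at least 37.3-fold lower. The other probe set of F11r (1436374_x_at) was just above background on all arrays, at 6.19 and 6.20 in OP9M2 and 6.32 and 6.39 in BFC012, and was not called (-0.16 ± 0.13, adjusted p = 0.596). The first probe set differed by -5.84 without OP9M2 replicate 1 and by -6.43 without OP9M2 replicate 2, still called (adjusted p = 0.0019 and 0.00123). Leaving out BFC012 replicate 1 or 2 kept a difference of -6.36 or -5.91 but gave an adjusted p of 0.0909 or 0.0989.

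Cadm1 encodes a nectin-like molecule, also known as SynCAM1 and TSLC1, which joins neighbouring cells through like or related molecules. Its highest probe set (1417378_at) was at 4.25 and 4.48 in OP9M2, against 10.78 and 9.99 in BFC012. The groups lay far apart (-6.02 ± 0.30, adjusted p = 0.00298, at least 19.6-fold lower). A pair of further probe sets, 1417376_a_at and 1417377_at, differed by -5.77 ± 0.30 and -5.75 ± 0.22 (adjusted p = 0.0033 and 0.00177, at least 13.5-fold and 11.8-fold lower). The fourth probe set, 1431611_a_at, was at 6.43 and 5.90 in OP9M2, against 8.12 and 7.72 in BFC012, with 1 of the 2 OP9M2 arrays above background. It was called lower by 3.37-fold (-1.75 ± 0.26, adjusted p = 0.0391), so that all 4 probe sets of Cadm1 were called in the same direction with sizes that differed. Without BFC012 replicate 1 or 2 the adjusted p of the 4 probe sets lay between 0.0826 and 0.348, with differences from -1.55 to -6.42.

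Itgb8 encodes the β8 chain, which pairs with αv in a receptor that binds latent TGF-β. Its only probe set (1436223_at) was at 2.77 and 3.18 in OP9M2, against 8.58 and 8.96 in BFC012. It was below background on both OP9M2 arrays and was called lower (-5.79 ± 0.23, adjusted p = 0.00183, at least 6.39-fold). Its partner chain Itgav was at 12.60 and 12.50 in OP9M2, against 12.89 and 12.93 in BFC012, and was not called (-0.36 ± 0.13, adjusted p = 0.247). Without BFC012 replicate 1 or 2 Itgb8 differed by -5.99 or -5.60, with an adjusted p of 0.0837 or 0.0929.

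Icam1 encodes a ligand of the leukocyte integrins LFA-1 and Mac-1 and is known as a gene induced by inflammatory signals. It stood at 4.39 and 4.64 in OP9M2, against 6.75 and 6.98 in BFC012 (1424067_at). BFC012 was above background on both arrays and OP9M2 on neither, and the gene was called lower (-2.35 ± 0.17, adjusted p = 0.00671, at least 1.71-fold). Without BFC012 replicate 1 or 2 the difference was -2.46 or -2.24 (adjusted p = 0.130 and 0.157), and at a stricter background level of 6.84, the 99th percentile, only BFC012 replicate 2 was above it.

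Of the 12 epithelial and mesothelial markers, the 6 called were lower in OP9M2, as were these 4 genes, and the other 6 were not called. Among the uncalled, Msln, Krt19 and Krt8 differed by -2.05, -1.40 and -0.59, and Krt18 and Cldn4 by -0.04 and -0.01. The summed level of the 12 markers was 11.07 and 10.99 on the OP9M2 arrays, against 13.37 and 13.74 on the BFC012 arrays. Their median difference was -2.91. The cadherin Cdh1 was at 3.50 and 3.39 in OP9M2, against 7.71 and 8.30 in BFC012, and the mesothelial marker Upk3b at 5.22 and 5.70 in OP9M2, against 11.26 and 11.66 in BFC012. Epcam was at 10.32 and 9.20 in OP9M2, against 8.73 and 8.90 in BFC012, a difference of 0.94 in the other direction. The part of these markers in the differences of F11r, Cadm1, Itgb8 and Icam1 was not tested. In such bulk RNA, fewer cells that carry a transcript and less of it per cell cannot be told apart.

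The promoters of F11r, Icam1 and Itgb8 are shown because these genes were called lower together. The RefSeq table used here (GRCm38.p6) held a promoter for 26 of the 39 genes, these among them, and none for Cadm1. Each runs 5′ to 3′ on the strand of its gene over 300 bases, 250 before the annotated start and 50 from it. The windows are chr1:171437311-171437610 on the plus strand for F11r, chr9:21015690-21015989 on the plus strand for Icam1 and chr12:119238227-119238526 on the minus strand for Itgb8. Capitals mark the E2 box CACCTG, the AP-1 motif TGAGTCA, the kappaB motif GGAAATTCC and the TATA box TATAAA, searched on both strands, and no such stretches overlap.
F11r promoter: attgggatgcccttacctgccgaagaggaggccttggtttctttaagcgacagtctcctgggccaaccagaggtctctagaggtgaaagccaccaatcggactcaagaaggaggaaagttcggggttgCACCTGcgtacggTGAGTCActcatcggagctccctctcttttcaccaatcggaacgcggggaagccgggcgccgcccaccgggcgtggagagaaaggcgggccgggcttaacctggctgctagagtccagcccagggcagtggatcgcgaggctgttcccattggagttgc
Icam1 promoter: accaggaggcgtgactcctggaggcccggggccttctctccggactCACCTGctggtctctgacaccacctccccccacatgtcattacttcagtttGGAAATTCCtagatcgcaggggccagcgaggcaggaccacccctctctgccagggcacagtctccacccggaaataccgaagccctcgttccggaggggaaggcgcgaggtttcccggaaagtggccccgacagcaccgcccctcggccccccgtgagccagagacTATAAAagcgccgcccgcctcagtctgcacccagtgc
Itgb8 promoter: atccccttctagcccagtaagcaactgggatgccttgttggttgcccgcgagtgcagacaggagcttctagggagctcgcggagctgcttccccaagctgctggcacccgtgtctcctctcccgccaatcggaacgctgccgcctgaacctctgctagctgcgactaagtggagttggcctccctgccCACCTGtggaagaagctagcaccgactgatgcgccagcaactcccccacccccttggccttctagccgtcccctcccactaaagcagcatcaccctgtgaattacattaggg

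The E2 box stood in all 3 promoters, at base -122 of F11r, -204 of Icam1 and -62 of Itgb8, counted from the start site, and in 20.2% of the 32851 promoters of that length. It was not counted over the 26 member promoters. Of the motifs searched but not marked, the CCAAT box (37.4% of promoters) stood in F11r and Itgb8. The GC box GGGCGG (35.7% of promoters) stood in F11r and Icam1. The promoter of Itga5, a gene with a probe set called higher, was searched too and held GC boxes but no E2 box. F11r held the AP-1 motif at -109, which 5.2% of promoters have. Icam1 held the kappaB motif at -153, which 0.317% of promoters have. It also held the letters TATAAA at 13 bases after the start, which 13.6% of promoters have at any position on either strand. Of CpG dinucleotides, F11r and Icam1 had 19 each and Itgb8 had 13, against a median of 7 per promoter. These matches describe the letters of the windows, and nothing bound to them was measured here.

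Vcam1, the stromal ligand of α4β1 integrin on progenitor cells, had 3 probe sets, all above background on all 4 arrays. The highest (1448162_at) was at 11.21 and 10.04 in OP9M2, against 11.76 and 12.04 in BFC012, and was not called (-1.28 ± 0.42, adjusted p = 0.207). A second, 1451314_a_at, was at 8.36 and 7.77 in OP9M2, against 10.06 and 10.55 in BFC012, and was called lower by 4.73-fold (-2.24 ± 0.29, adjusted p = 0.0279). The third, 1415989_at, was at 8.34 and 7.95 in OP9M2, against 9.27 and 9.81 in BFC012 (-1.39 ± 0.26, adjusted p = 0.0651). In each of the 3 probe sets both OP9M2 arrays were below both BFC012 arrays, and the call rested on 1 of them. The highest probe set was called without OP9M2 replicate 1 (-1.86, adjusted p = 0.0135) and not without OP9M2 replicate 2 (-0.69, adjusted p = 0.102), and 1451314_a_at was not called without BFC012 replicate 1 or 2 (adjusted p = 0.225 and 0.292).

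Alcam, the ligand of the lymphocyte receptor CD6, was carried by 4 probe sets that moved alike and 1 below background on all arrays. The highest was at 5.90 and 7.56 in OP9M2, against 7.41 and 8.41 in BFC012 (-1.18 ± 0.66, adjusted p = 0.438). OP9M2 replicate 1 was below background on all 4 of these probe sets and OP9M2 replicate 2 above it, and their differences ran from -1.49 to -1.18 with none called. The highest differed by -0.35 without OP9M2 replicate 1 and by -2.01 without OP9M2 replicate 2 (adjusted p = 0.725 and 0.0601). Icam2, a ligand of LFA-1 known mainly from endothelium, was below background throughout, at 5.23 and 5.48 in OP9M2 and 5.16 and 5.25 in BFC012. Of 12 endothelial markers, limma called 0, with 1 at an unadjusted p under 0.05. All 4 genes of this class were thus measured, with 1 called lower and 3 not called.

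Jam2, which encodes JAM-B, had the most probe sets called higher in OP9M2 among the members. The highest (1449408_at) was at 9.89 and 9.04 in OP9M2, against 6.95 and 7.57 in BFC012, a 4.61-fold difference that just missed the threshold (2.20 ± 0.37, adjusted p = 0.0536). Of the other 4 probe sets, 3 were called higher. At 1436568_at the level was 8.82 and 8.25 in OP9M2, against 5.30 and 6.31 in BFC012 (2.73 ± 0.41, adjusted p = 0.0408, 6.63-fold, with 1 of the 2 BFC012 arrays above background). At 1419288_at and 1431416_a_at the differences were 1.51 ± 0.24 and 1.52 ± 0.15 (adjusted p = 0.0481 and 0.0152), at least 2.09-fold and 1.28-fold. The last, 1431417_at, had an adjusted p of 0.0402 and a difference of 0.89 ± 0.13, under the 1 log2 unit required. OP9M2 was above BFC012 without overlap on all 5 probe sets.

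The highest probe set of Jam2 was called without OP9M2 replicate 1 (1.78, adjusted p = 0.0432) and without OP9M2 replicate 2 (2.63, adjusted p = 0.0133), and the mean over the 5 probe sets gave 1.77 ± 0.19 (adjusted p = 0.0154). The adjusted p of 1436568_at was 0.0519 without OP9M2 replicate 1, and that of 1419288_at 0.0536 under quantile normalization and 0.0504 under a robust variance prior. Without either BFC012 array none of the 5 was called, and the adjusted p of the 3 called probe sets lay between 0.168 and 0.374. Jam3, which encodes JAM-C, the binding partner of JAM-B, was at 8.44 and 8.04 in OP9M2, against 8.54 and 8.72 in BFC012. It was not called (-0.39 ± 0.19, adjusted p = 0.388). The junctional class thus held 1 gene called lower, F11r, and 2 not called.

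**Figure D2:**
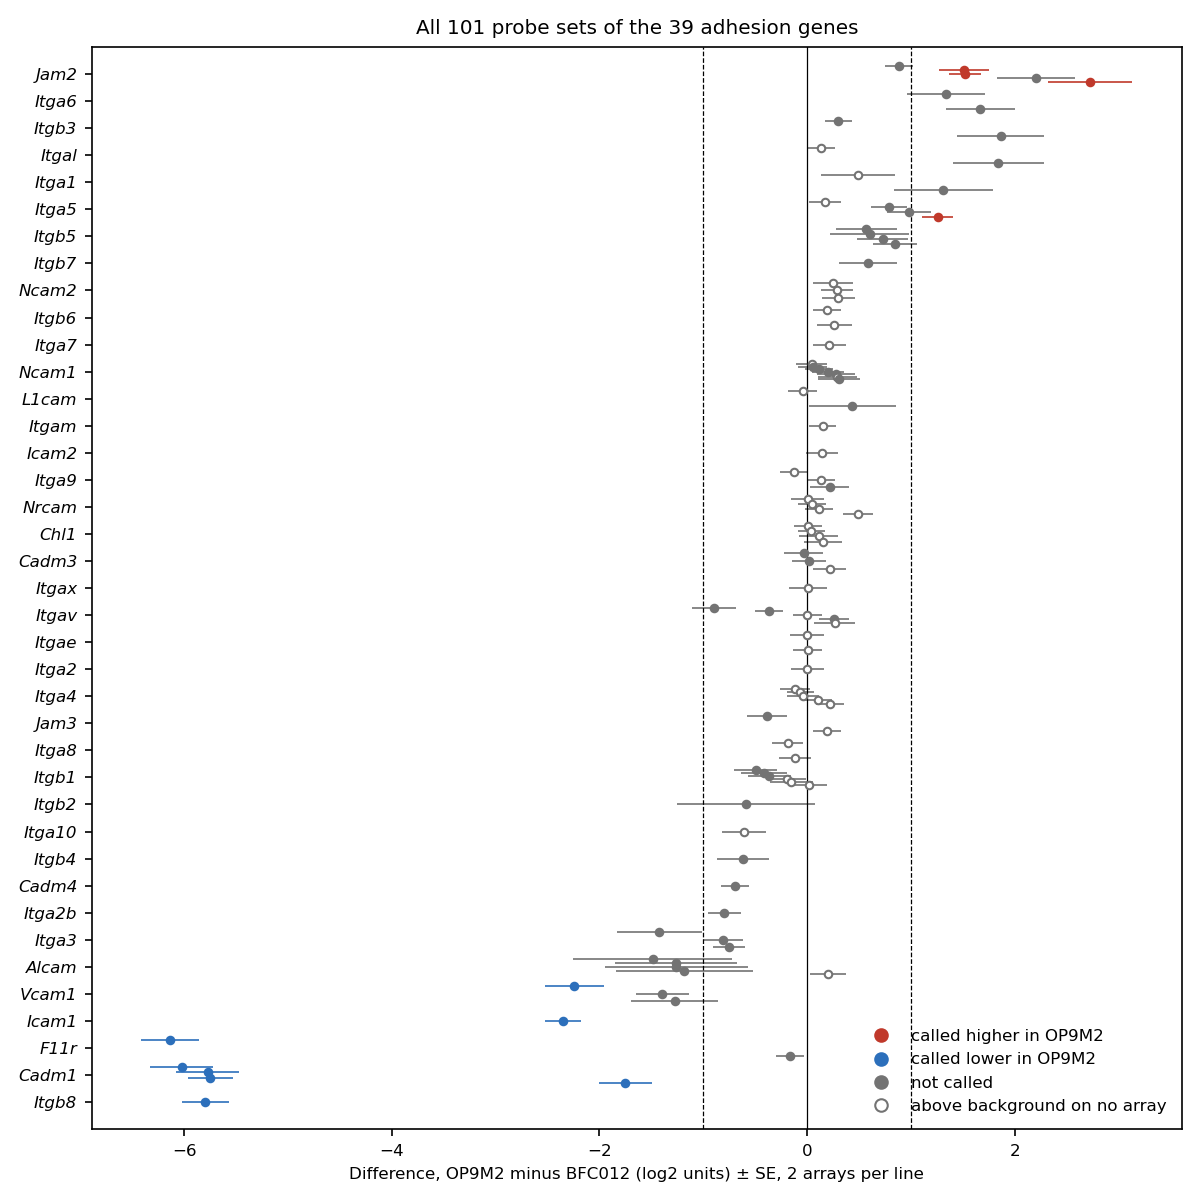
Difference OP9M2 minus BFC012 ± SE (log2 units, x axis, 2 arrays per line) of all 101 probe sets, 1 row per gene. Red marks the 4 probe sets called higher, blue the 8 called lower and open symbols those above background on no array, and dashed lines stand at a difference of 1 log2 unit either way. The 5 probe sets of Jam2 lie right of 0, those of Cadm1 left of it, and F11r has 1 far to the left and 1 near 0.

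The other nectin-like molecules were near the background level. Cadm3 was at 6.42 and 6.69 in OP9M2, against 6.62 and 6.46 in BFC012 (0.02 ± 0.17, adjusted p = 0.978). Cadm4 was at 5.63 and 5.78 in OP9M2, against 6.39 and 6.40 in BFC012, and was not called (-0.69 ± 0.14, adjusted p = 0.0771). Within this class only Cadm1 was called.

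Of the neural adhesion molecules, Ncam1 alone was above background on all arrays. Its highest probe set (1426865_a_at) was at 9.35 and 9.72 in OP9M2, against 9.37 and 9.08 in BFC012, and the lines overlapped in range only narrowly (0.31 ± 0.20, adjusted p = 0.509). The differences of its 7 probe sets ran from 0.05 to 0.31 with none called. L1cam, an axonal adhesion molecule, was at 5.26 and 6.46 in OP9M2, against 5.40 and 5.46 in BFC012, with OP9M2 replicate 2 alone above background (0.44 ± 0.42, adjusted p = 0.672). It was called higher without OP9M2 replicate 1 (1.03, adjusted p = 0.0342), and without OP9M2 replicate 2 the difference was -0.16 (adjusted p = 0.607). Ncam2, Nrcam and Chl1 were below background on all arrays. Of 10 neural and glial markers, 5 and 5 were above background on the OP9M2 arrays, against 7 and 7 on the BFC012 arrays, and Mbp and Erbb3 were called lower in OP9M2.

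Among the integrin α chains 5 of 16 were above background on all 4 arrays, and by the highest probe set none was called. Itgav, whose values are given beside Itgb8 and which forms the receptors of vitronectin and other ligands with the sequence Arg-Gly-Asp, had 5 probe sets with differences from -0.89 to 0.27. Itga5, the fibronectin receptor chain, was at 8.94 and 8.98 in OP9M2, against 8.34 and 7.99 in BFC012 (0.79 ± 0.17, adjusted p = 0.0937, 1.73-fold). Its probe set 1458996_at was at 6.45 and 6.26 in OP9M2, against 5.15 and 5.04 in BFC012, and was called higher (1.26 ± 0.15, adjusted p = 0.0226, at least 1.20-fold). All 4 probe sets of Itga5 had a positive difference, of which the lowest was 0.17, and 1458996_at had an adjusted p of 0.255 or 0.289 without BFC012 replicate 1 or 2.

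The laminin receptor chains went in opposite directions without a call. Itga6 was at 10.26 and 9.73 in OP9M2, against 8.19 and 9.11 in BFC012 (1.34 ± 0.38, adjusted p = 0.157). Its second probe set was at 8.71 and 8.39 in OP9M2, against 6.44 and 7.31 in BFC012 (1.67 ± 0.34, adjusted p = 0.0793). On both probe sets the lines did not overlap, and OP9M2 was the higher. Itga3 was at 7.85 and 9.0 in OP9M2, against 9.97 and 9.72 in BFC012 (-1.42 ± 0.41, adjusted p = 0.167). Its other probe sets differed by -0.81 and -0.75, and without OP9M2 replicate 2 the first was called lower (-2.0, adjusted p = 0.00854), while without OP9M2 replicate 1 it was not (-0.85, adjusted p = 0.0767).

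Itga1, a collagen and laminin receptor chain, was at 8.01 and 6.64 in OP9M2, above background, against 6.06 and 5.96 in BFC012, just below it. The 2 OP9M2 arrays were 1.37 log2 units apart, and the gene was not called (1.31 ± 0.48, adjusted p = 0.243, at least 2.35-fold). Without OP9M2 replicate 2 it was called higher (2.0, adjusted p = 0.00599) and without OP9M2 replicate 1 it was not (0.63, adjusted p = 0.107). Itga2b, the platelet fibrinogen receptor chain, was at 8.47 and 8.19 in OP9M2, against 9.12 and 9.14 in BFC012 (-0.80 ± 0.16, adjusted p = 0.0784). Of 7 platelet markers, 4 and 2 were above background on the OP9M2 arrays, against 4 and 4 on the BFC012 arrays, with summed levels of 8.99 and 8.83 in OP9M2 against 9.56 and 9.46 in BFC012. Ppbp, a platelet chemokine, was called lower, at 5.09 and 4.96 in OP9M2, against 8.31 and 8.31 in BFC012 (-3.29 ± 0.13, adjusted p = 0.00195). The summed levels include Ppbp, and the other 6 platelet markers were not called. The part of these markers in the level of Itga2b was not tested.

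Itgal, the LFA-1 α chain of leukocytes, was at 7.26 and 6.0 in OP9M2, against 4.81 and 4.77 in BFC012. Only OP9M2 replicate 1 was above background, and the gene was not called (1.84 ± 0.44, adjusted p = 0.112). The difference was 1.21 without OP9M2 replicate 1 (adjusted p = 0.0236) and 2.47 without OP9M2 replicate 2 (adjusted p = 0.00339), both called. Of 15 haematopoietic cell markers, 5 and 8 were above background on the OP9M2 arrays, against 7 and 7 on the BFC012 arrays, with summed levels of 10.02 and 10.18 in OP9M2 against 10.41 and 10.64 in BFC012. Cd14, a monocyte receptor, was called lower (-1.96 ± 0.27, adjusted p = 0.0347), and Hcls1, a gene of blood cells, was called higher (1.63 ± 0.23, adjusted p = 0.0371) but was below background on all 4 arrays. The summed levels include Cd14, and the other 13 haematopoietic markers were not called. The part of these markers in the level of Itgal was not tested.

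The highest probe sets of the remaining 9 α chains (Itga2, Itga4, Itga7, Itga8, Itga9, Itga10, Itgae, Itgam and Itgax) were below background on all arrays, with levels from 3.76 to 6.03. Their differences ran from -0.61 to 0.21, and none was called. They include the α4 chain, the partner of VCAM-1, and the myeloid chains αM and αX.

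Among the β chains Itgb8 was called and 7 were not. Itgb1, the common partner of the α chains of matrix receptors, was at 10.79 and 10.90 in OP9M2, against 11.10 and 11.58 in BFC012 (-0.49 ± 0.21, adjusted p = 0.311). Itgb5, a partner of αv, was at 11.56 and 10.60 in OP9M2, against 10.72 and 10.23 in BFC012 (0.61 ± 0.38, adjusted p = 0.491), and its 4 probe sets differed by 0.57 to 0.85. The ranges of the lines overlapped for the highest probe set of Itgb5 and not for that of Itgb1.

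Itgb3, which pairs with αv and αIIb, was at 9.60 and 8.40 in OP9M2, against 7.12 and 7.14 in BFC012. Both OP9M2 arrays were above both BFC012 arrays, but they were 1.20 log2 units apart, and the 3.64-fold difference was not called (1.87 ± 0.42, adjusted p = 0.101). It was 1.26 without OP9M2 replicate 1 (adjusted p = 0.0210) and 2.47 without OP9M2 replicate 2 (adjusted p = 0.00336), both called. Its other probe set, near background, differed by 0.30 ± 0.13.

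Itgb4, the partner of α6 in hemidesmosomes, was at 7.25 and 6.61 in OP9M2, against 7.49 and 7.60 in BFC012 (-0.61 ± 0.25, adjusted p = 0.298). Itgb7, a chain of lymphocyte homing receptors, was at 7.11 and 7.86 in OP9M2, against 6.89 and 6.90 in BFC012 (0.59 ± 0.28, adjusted p = 0.367). Itgb2, the common chain of leukocyte integrins, scattered around background, at 6.40 and 4.71 in OP9M2 and 5.65 and 6.63 in BFC012 (-0.59 ± 0.66, adjusted p = 0.724). Itgb6, an epithelial partner of αv, was below background on all arrays. For Itgb2 the spread within each line was larger than the difference between them.

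Since integrins work as pairs, 24 textbook pairs were read from the same levels, a list written after the values had been seen. Both chains were measured for 22 of them. In 9 pairs both transcripts were above background on both arrays in OP9M2 and in 9 in BFC012, with 8 pairs in common. These were α3β1, α5β1, α6β1, αvβ1, αvβ3, αvβ5, αIIbβ3 and α6β4. OP9M2 alone had α1β1, through Itga1, which was just below background in BFC012 and was not called. BFC012 alone had αvβ8, through Itgb8, which was called. In 12 pairs, including α4β1 and all 3 measured pairs of β2, at least 1 chain missed the level in both lines. The arrays measure transcripts, and the receptors themselves were not measured.

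**Figure D3:**
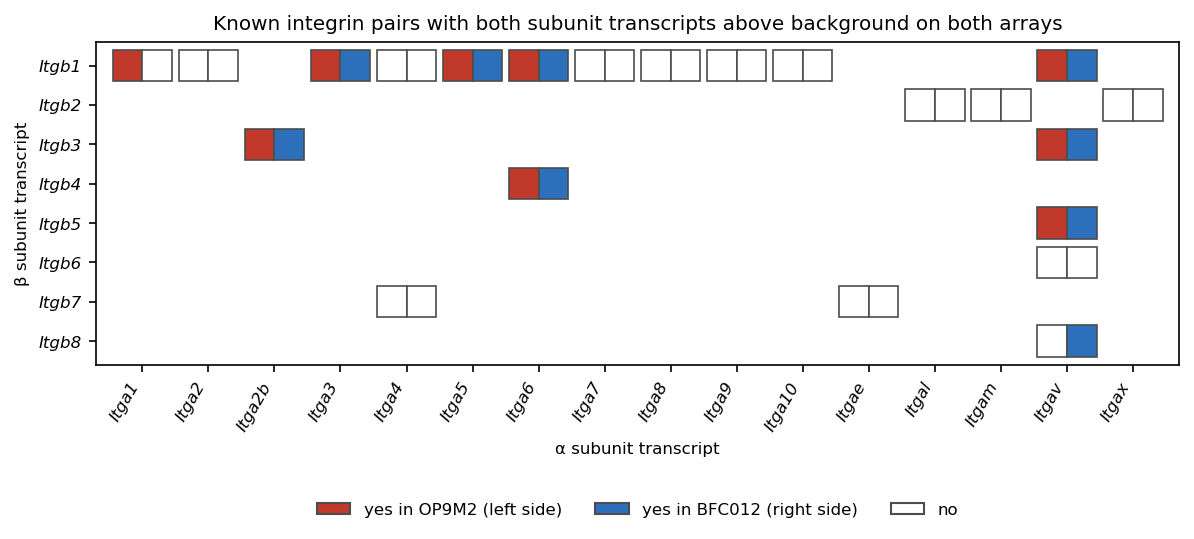
Grid of the 22 measured integrin pairs, α chains along the x axis and β chains along the y axis. The left side of a box is filled red where both transcripts were above background on both OP9M2 arrays and the right side blue where they were on both BFC012 arrays. Of the filled boxes 8 are filled on both sides, α1β1 on the OP9M2 side alone and αvβ8 on the BFC012 side alone.

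The spread between replicates was wide for these genes in OP9M2. Of the 39 genes, 8 (20.5%, against 7.40% of all genes) were at least 1 log2 unit apart between the 2 OP9M2 arrays, and 0 (against 0.566% of all genes) between the 2 BFC012 arrays. The 8 were Itgb2, Itga1, Itgal, Itgb3 and Vcam1, higher on OP9M2 replicate 1, and Alcam, L1cam and Itga3, higher on OP9M2 replicate 2. Over the 15 genes above background on all arrays the median gap was 0.53 between the OP9M2 arrays and 0.24 between the BFC012 arrays. Several of the differences that missed the call belong to these 8 genes.

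Inside the cell, integrins are tied to actin by the proteins of focal adhesions. Of 42 such genes 38 were measured, 34 of them above background on all arrays, with 2 called higher, 0 lower and a median difference of -0.04 (all genes 0.032). The shares called over all genes were 2.36% higher and 3.56% lower. At an unadjusted limma p under 0.05, 7 of these genes were higher and 8 lower, each by its highest probe set. Of all probe sets 19.4% had such a p in either direction. The share was 26% where only probe sets above background in a line were tested. Counts of genes and shares of probe sets are different measures. Parvb, β-parvin, was at 9.92 and 9.87 in OP9M2, against 5.49 and 5.64 in BFC012 (4.33 ± 0.14, adjusted p = 0.00139, at least 13.9-fold). Lims2, PINCH-2, was at 8.84 and 8.32 in OP9M2, against 7.08 and 6.80 in BFC012 (1.64 ± 0.23, adjusted p = 0.0367). In both, the lines did not overlap, and Parvb was below background in BFC012. The calls in this list changed with each array left out, as they did over the whole table.

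The ligands of integrins were called in both directions. Of 41 genes 37 were measured, with 6 called higher, 4 lower and a median difference of 0.04. The shares called over all genes were 2.36% higher and 3.56% lower. The higher ones included the collagen chains Col1a2 (8.07 ± 0.14, adjusted p = 0.00105) and Col6a3 (6.69 ± 0.42, adjusted p = 0.00468) and Edil3, a ligand of αvβ3 and αvβ5 (6.03 ± 0.27, adjusted p = 0.00221). The lower ones included the thrombospondin Thbs1 (-6.10 ± 0.46, adjusted p = 0.00759), Npnt, the α8β1 ligand nephronectin (-4.16 ± 0.25, adjusted p = 0.00415), and the basement membrane protein Nid2 (-2.79 ± 0.31, adjusted p = 0.0196). Edil3 was below background in BFC012 and Npnt in OP9M2, so that their folds are bounds, at least 7.12-fold higher for Edil3 and at least 13.2-fold lower for Npnt. The receptor chains of Edil3 were above background in both lines, and Itga8, the receptor chain for Npnt, in neither. Tgfb1, whose latent product αvβ8 binds, was not called (-0.43 ± 0.39, adjusted p = 0.639). The calls among the ligands changed with each array left out, as they did over the whole table.

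Of 48 other immunoglobulin adhesion molecules 45 were measured, with 2 called higher, 3 lower and a median difference of 0.08. The shares called over all genes were 2.36% higher and 3.56% lower. Cxadr, the coxsackievirus and adenovirus receptor of tight junctions, was at 3.36 and 3.59 in OP9M2, against 10.99 and 11.20 in BFC012 (-7.63 ± 0.17, adjusted p = 0.00105, at least 32.1-fold lower). Clmp, a related molecule, was at 10.72 and 9.95 in OP9M2, against 5.92 and 6.51 in BFC012 (4.12 ± 0.35, adjusted p = 0.00992). Robo1, a Slit receptor, was at 9.28 and 9.09 in OP9M2, against 2.84 and 2.90 in BFC012 (6.32 ± 0.15, adjusted p = 0.00105, at least 8.53-fold higher), while Mcam and Icam4 were called lower (-3.48 ± 0.33 and -1.63 ± 0.21, adjusted p = 0.0132 and 0.0295). The calls among these molecules changed with each array left out, as they did over the whole table.

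**Figure D4:**
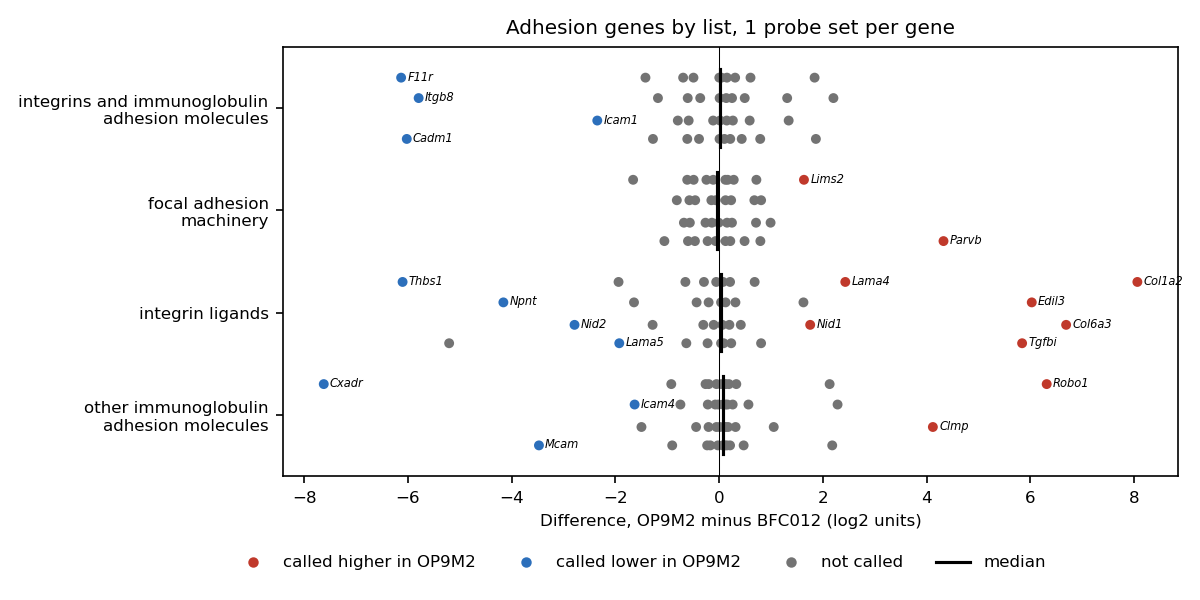
Difference OP9M2 minus BFC012 (log2 units, x axis) of each gene, 1 probe set per gene, in the 39 integrin and immunoglobulin adhesion genes and in 3 related lists. Red marks genes called higher, blue genes called lower, grey genes not called, and the black bar is the median, and points are spread vertically only for legibility. The medians lie between -0.04 and 0.08, and the called genes lie far from them on both sides in the ligands and on the lower side alone in the first row.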

How the data were processed

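Each array came as 1 deposited intensity per probe set, for which the authors' processing notes list RMA and affy and the methods name Bioconductor 2.7, without settings. Because 6.31% to 6.57% of the deposited intensities of an array exceeded 65535, the scanner's largest value, while their natural logarithms lay between 2.06 and 14.9, these logarithms were taken as RMA values in log2 units. The base was not stated by the authors, and log2 of the deposited values was an alternative. Median deposited intensities were 441 and 451 in OP9M2 and 450 and 431 in BFC012.

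Of 45101 probe sets, 64 array controls were left out. Of the 45037 tested, 34945 named 1 gene, 932 several and 9160 none, and only those with 1 gene were named. The lines were compared in R 4.3.3 by limma 3.58.1 with Benjamini-Hochberg adjustment over all probe sets. The fit was two-sided (lmFit and eBayes without covariates, 2 residual and 2.50 prior degrees of freedom). It was run beforehand on simulated data with the same spread in both lines, which these arrays did not have. The number of arrays limits the precision. The value table holds no detection calls, hence the background level. Folds are 2 raised to the difference, and summed levels are the log2 of the sum of unlogged values.

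Values, difference, SE and adjusted p were given for every member gene with a called probe set or above background on all arrays, others by range, and from each related list up to 3 called genes per direction. L1cam, Itga1, Itgal, Itgb2, Alcam, Icam2, Cadm4 and Tgfb1 were given values beyond that rule. So were the uncalled markers Ptprc, Epcam, Msln, Krt19, Krt8, Krt18 and Cldn4, and Lum was named. The members and lists were chosen with earlier results of these data known. Same-numbered arrays did not deviate together (correlation of deviations -0.103), so replicate numbers were not taken as pairs. Alternatives covered scale, normalization, variance prior, array weights, a filter on dim probe sets, a replicate block, the probe set per gene, the background level and each array left out.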

Additional observations from a re-analysis of the deposited data

How the results depend on the processing

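The 4 genes called lower (F11r, Cadm1, Itgb8 and Icam1) kept that call under every alternative except those without BFC012 replicate 1 or 2, where limma called 0 of all probe sets and the smallest adjusted p among the member probe sets was 0.0826 and 0.0903. Over the arrays left out in turn, the count of member genes called lower ranged from 0 to 5, of member genes called higher from 0 to 4, of member probe sets called lower from 0 to 13 and of those called higher from 0 to 8. Under quantile normalization, an intensity trend in the variance prior, array weights, testing only probe sets above background in a line, the mean over all probe sets of a gene and the crossed replicate block, 1 member gene, Jam2, was called higher in place of 0.

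With the replicate number as a block in the fit, 0 member probe sets were called higher in place of 4 and 6 lower in place of 8, while the 4 genes kept their call. The probe sets that lost it there were 3 of Jam2, and 1 each of Vcam1, Cadm1 and Itga5, with adjusted p from 0.0542 to 0.142. The Jam2 probe set 1419288_at also lost its call under quantile normalization, a robust variance prior and the crossed replicate block (adjusted p = 0.0536, 0.0504 and 0.109). The crossed replicate block, chosen after seeing the data, called 585 probe sets of the whole table higher and 792 lower, against 245 and 462 with the block and 810 and 1198 without one. The cause of these changes was not tested.

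Of 47 single results, 7 changed sign under some alternative, none of them called with all arrays or where the sign changed. Of the 7, L1cam was called higher without OP9M2 replicate 1 and had the opposite sign without OP9M2 replicate 2. Over the arrays left out in turn, the difference ranged from -0.116 to 0.151 for Cadm3, -0.000811 to 0.0869 for Chl1, -0.164 to 1.03 for L1cam, -0.105 to 0.111 for Itga2, -0.0532 to 0.0691 for Itgae, -0.164 to 0.183 for Itgax and -1.43 to 0.256 for Itgb2. Under quantile normalization it was -0.00228 for Chl1, -0.0320 for Itga2, -0.0294 for Itgae and -0.0300 for Itgax. With the deposited values taken to log2 instead, each difference was 1.44 times as large (F11r -8.85), no call among the single results changed, and 5 member probe sets were called higher in place of 4. The count of member genes above background was 19 in OP9M2 and 23 in BFC012 at the 90th percentile, and 13 and 18 at the 99th. Closeness to background limits the dim genes: for the 14 genes whose highest probe set was above background on no array, the measured differences give no order of levels, and the genes are not shown to be absent.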
